A study of Mus musculus with 12 samples.

Results

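The cytosolic ribosomal protein genes and their copies expressed in the germ line were followed in mouse primordial germ cells (PGCs), which give rise to eggs and sperm. Genes were chosen by name alone: every row named Rpl or Rps with a number, together with Rplp0, Rplp1, Rplp2 and Rpsa, and without the kinases named Rps6k. This gave 86 of 22552 genes in the stage tables and 85 of 16394 in the knockout table, which holds no single row for Rpl34. Of the 86, 43 are proteins of the large subunit, 31 of the small subunit and 3 of the P-stalk, and these 77 are called canonical here. A further 8 are paralogues (Rpl10l, Rpl39l, Rpl3l, Rpl7l1, Rpl22l1, Rpl36al, Rps27l and Rps4y2), and Rps19bp1, caught by its name, encodes a protein that binds Rps19 and is no ribosomal protein.

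All 12 libraries were made from C57BL/6 embryos by amplifying cDNA from 400 to 5000 PGCs. Wild-type PGCs came from 3 ages, embryonic day 9.5 (E9.5) and E11.5 with 2 libraries each, and E13.5 with 3 libraries named E13.5m and 3 named WT. Tet1-KO PGCs, with the genotype Tet1 -/-, were taken at E13.5 (2 libraries) and lack the gene for an enzyme that oxidises methylated cytosine in DNA. The authors deposited 1 pooled FPKM per group (fragment number relative to transcript length and sequencing yield) in 4 comparison tables, so a level has no measured spread between libraries and the depth is unknown. The labels do not say whether libraries came from separate embryos, so the p-values cannot be read as a spread between embryos. They are those of the authors' tests and speak for these libraries only. One column of the stage tables is named E13.5f, a name that no sample title carries, and it is used as the table gives it. For most members its values lay near those of WT, so whether E13.5f and WT hold separate libraries is unknown.

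A ribosome is built from a large and a small subunit, each made of ribosomal RNA and a fixed set of proteins that every growing cell needs in matched amounts. Several of these proteins have an intact gene copy elsewhere in the genome, often one that arose from a spliced RNA. Rpl10l and Rpl39l are such autosomal copies of the X-linked genes Rpl10 and Rpl39, known in mouse for their expression in testis and for their need in male germ cells, where the X chromosome is silenced at meiosis.

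The coding sequences of Rpl39l and Rpl39 are shown because the finding at E11.5 rests on telling such copies apart. Both are 153 bases long without the stop codon (GENCODE M21), and capitals mark the 23 bases at which they differ, an identity of 85.0%.
Rpl39l: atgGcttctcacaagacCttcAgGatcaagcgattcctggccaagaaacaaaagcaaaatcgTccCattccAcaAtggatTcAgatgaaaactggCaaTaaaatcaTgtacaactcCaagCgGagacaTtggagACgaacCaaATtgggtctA
Rpl39: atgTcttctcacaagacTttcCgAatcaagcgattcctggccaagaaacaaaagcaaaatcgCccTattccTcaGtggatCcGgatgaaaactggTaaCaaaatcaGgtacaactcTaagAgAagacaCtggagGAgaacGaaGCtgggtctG
Rpl10l and Rpl10 differed at 98 of 642 coding bases, an identity of 84.7%. No stretch of 50 bases was shared between the transcripts of either pair. Rpl39l shared no coding stretch of this length with any other annotated gene, and Rpl10l shared 12.5% of its stretches with 1 other gene. The canonical members stood otherwise, since a median of 90.3% of their coding stretches also occurred in other genes, with a median of 10 such genes per member.

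The promoters of the copies are shown because Rpl10l and Rpl39l moved together. Each run covers 250 bases before and 50 after the RefSeq start on the gene's own strand (GRCm38.p6), with every CG pair, the site of DNA methylation, in capitals. Rpl10l lies at chr12:66284352-66284651 (minus strand) and Rpl39l at chr16:10169978-10170277 (plus strand).
Rpl10l promoter: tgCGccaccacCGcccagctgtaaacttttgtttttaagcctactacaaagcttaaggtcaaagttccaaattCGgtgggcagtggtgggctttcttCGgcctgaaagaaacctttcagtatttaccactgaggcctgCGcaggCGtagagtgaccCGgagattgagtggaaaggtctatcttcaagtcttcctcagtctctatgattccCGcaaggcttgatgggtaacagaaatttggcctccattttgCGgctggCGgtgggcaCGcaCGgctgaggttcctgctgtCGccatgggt
Rpl39l promoter: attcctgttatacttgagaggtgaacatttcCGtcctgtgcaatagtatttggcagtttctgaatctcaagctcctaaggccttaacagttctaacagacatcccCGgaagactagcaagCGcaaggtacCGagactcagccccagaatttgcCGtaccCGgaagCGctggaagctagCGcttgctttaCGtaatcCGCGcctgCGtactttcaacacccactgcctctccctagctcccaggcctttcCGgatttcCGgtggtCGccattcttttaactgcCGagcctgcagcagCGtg
The window of Rpl10l held 13 CG pairs and that of Rpl39l held 17, as did those of Rpl10 and Rpl39. The median was 21 over 67 canonical promoters and 7 over 32851 promoters of all genes. The letters CTTTC, the core of the pyrimidine tract at which ribosomal protein mRNAs start, occurred on the sense strand within 20 bases of the start in 26.9% of canonical promoters and in 5.49% of all promoters. Rpl39l held them there, and Rpl10l, Rpl10 and Rpl39 did not. On either strand the shares were 31.3% and 10.2%. In Rpl39l the letters lay just before the RefSeq start. Rpl39 held them near the end of its 50 bases after the start, outside the 20-base window. The contrast between Rpl39l and Rpl39 thus depends on the annotated start and on the window.

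The canonical genes spanned a wide range of levels that changed little between groups. Levels in the 3 stage tables were put on 1 scale by the E11.5 column they share. On this scale the mean over the 4 groups had a median of 164 FPKM over the 77 canonical genes, with 7 at 1000 FPKM or more and 7 under 10 FPKM. Rpl4, whose loop lines the exit tunnel of the large subunit, was the highest, with 2899 FPKM at E9.5, 3006 at E11.5, 3086 at E13.5f and 2655 at E13.5m. It was thus nearly level across the 4 groups. Rpl8, next to the peptidyl transferase centre, averaged 1878 FPKM, Rplp0, the base of the stalk that binds translation factors, 1468 FPKM, and Rpl7 1254 FPKM. The lowest 5 were Rpl26 at 0.564 FPKM, Rps15a at 3.29, Rps29 at 3.40, Rpl21 at 3.49 and Rps27 at 3.56. Rpl26 was listed at 0 at E9.5 and at E11.5.

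**Figure D1:**
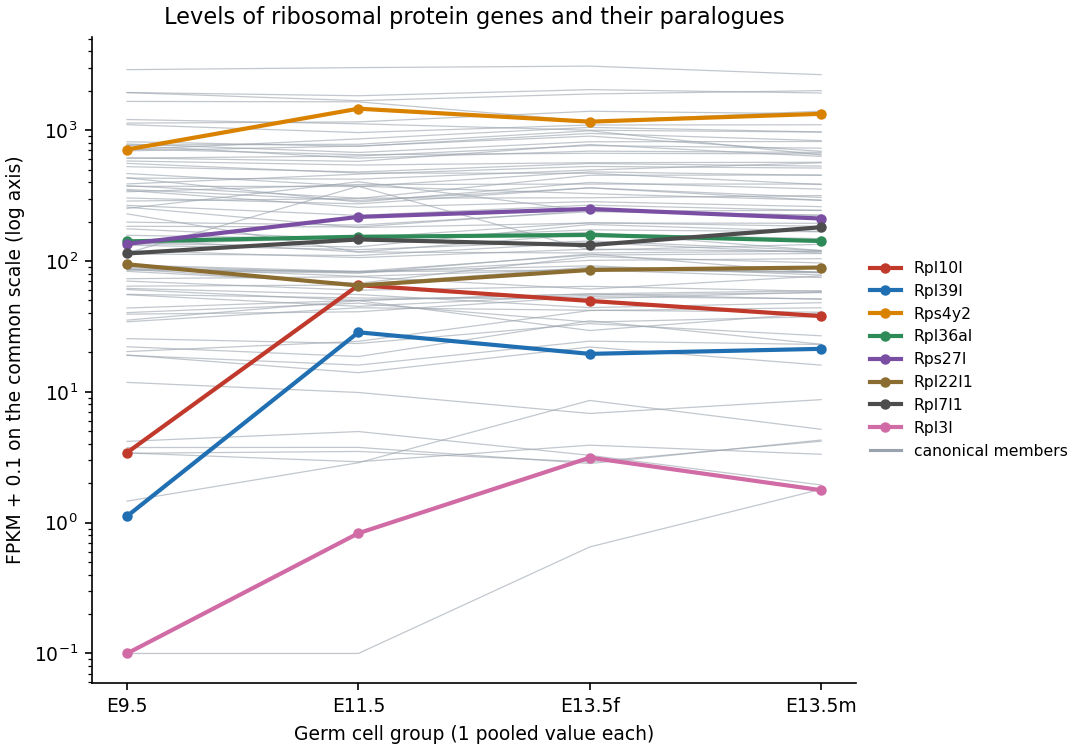
FPKM + 0.1 on the common scale (log axis) at E9.5, E11.5, E13.5f and E13.5m, 1 pooled value per group; grey lines are canonical members and coloured lines the 8 paralogues. Most grey lines run flat, whereas Rpl10l and Rpl39l are low at E9.5 and within the range of the canonical members in the other 3 groups.

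The same protein set is needed in matched amounts, yet measured levels of the canonical genes lay far apart. The 7 genes under 10 FPKM shared between 64.6% and 100% of their coding 50-base stretches with other genes. The 11 canonical genes that shared under 50% had a median of 684 FPKM, the 26 that shared 50 to 90% a median of 118 FPKM, and the 40 that shared 90% or more a median of 138 FPKM. Across the 77 genes, level had a Spearman rho of -0.33 with the shared percent and of 0.65 with the coding length, a description over genes of the same libraries. The part of read assignment in these levels was not tested.

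Of 76 canonical genes above 0 in all 4 groups, 59 had a highest group level under 1.5 times the lowest, and 4 reached 2 times, among them Rps18, Rpl21 and Rps23. At a mean of 10 FPKM or more, the median of this ratio was 1.32 over 70 canonical genes and 1.96 over 6284 genes of all kinds. Of the 70, 2 reached 2 times, against 48.2% of all. The sets were not matched for level beyond this floor, and the part of level in the contrast was not tested. Together the members held 5.54% of the summed FPKM at E9.5, 4.38% at E11.5, 4.33% at E13.5f and 4.52% at E13.5m. Their own sum was 33860 FPKM at E9.5 and 33514 at E11.5, while all genes summed to 611167 and 765955. The members held 4.72% in Tet1-KO and 4.07% in WT PGCs at E13.5. There their own sum was lower in Tet1-KO (27262 against 31535 FPKM), as was that of all genes (577828 against 775559). The knockout percents are taken over fewer genes, so they are not directly comparable with the stage percents. A few genes carried much of the members' share: the 10 highest members held between 46.9% and 49.7% of the members' FPKM in the 6 groups. Rpl4 was the highest in every group, and Rps4y2 was among the 10 in each group but E9.5.

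Between E11.5 and E9.5, a time at which PGCs move from the hindgut to the gonad, Rpl10l and Rpl39l rose and no canonical ribosomal protein gene was called. Rpl10l (chr12:67384365-67385388, mm9) had 75 FPKM at E11.5 and 3.83 FPKM at E9.5. Its log2 ratio was 4.29 ± 0.98 (SE implied by the deposited test), with an adjusted p of 0.000975 in the authors' deposited table. Rpl39l (chr16:10170320-10175004, mm9) had 32.7 FPKM at E11.5 and 1.18 FPKM at E9.5. Its log2 ratio was 4.79 ± 1.31 (SE), with an adjusted p of 0.00913 in the authors' deposited table. Both copies were the only members called at the threshold of 0.05, with 2 higher and 0 lower of 85 tested, where 3.71% of all 12904 tested genes were higher and 1.92% lower. At an unadjusted p under 0.05 stood 5 members: both copies, Rps4y2, Rpl3l and Rps18. Of all 12904 tested genes 2559 did, a larger share. In bulk samples more cells of a type and more RNA per cell cannot be told apart.

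The other paralogues were not called. Rps4y2, a copy of the X-linked Rps4x named Rps4l in current annotation and listed there as a transcribed pseudogene, had 1677 FPKM at E11.5 and 818 at E9.5, with an adjusted p of 0.168 in the authors' deposited table. Its row spans chr6:147995937-148392874 (mm9), far longer than its annotated transcript of 943 bases, so which copies it counts is uncertain. Rps27l, a copy of Rps27 induced by p53, had 249 FPKM at E11.5 and 155 at E9.5, and Rpl7l1 had 168 and 131 FPKM in that order. Rpl36al, the autosomal copy of Rpl36a, had 175 FPKM at E11.5 and 162 at E9.5. Rpl22l1, the paralogue of Rpl22, lay the other way at 74.5 FPKM at E11.5 and 108 at E9.5. Rpl3l, the form of Rpl3 known from striated muscle, had 0.839 FPKM at E11.5 and was listed at 0 at E9.5.

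Across the canonical genes the median log2 ratio of E11.5 over E9.5 was -0.10, and 70 of 76 lay within 0.5 of no change. All genes with at least 1 FPKM at both ages had a median of 0.32, and 51.2% of them lay within 0.5. These sets were not matched for level either. The medians were -0.11 for the large subunit, -0.08 for the small subunit and -0.24 for the P-stalk. Among the highest canonical ratios were those of Rps18 of the small-subunit head (1.69 ± 0.57 SE) and Rpl29 (0.68 ± 0.52). Among the lowest were Rpl10a (-0.61 ± 0.49) and Rps10 (-0.52 ± 0.54). Rps18 had 427 FPKM at E11.5 and 133 at E9.5, and its adjusted p of 0.0537 in the authors' deposited table missed the threshold.

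**Figure D2:**
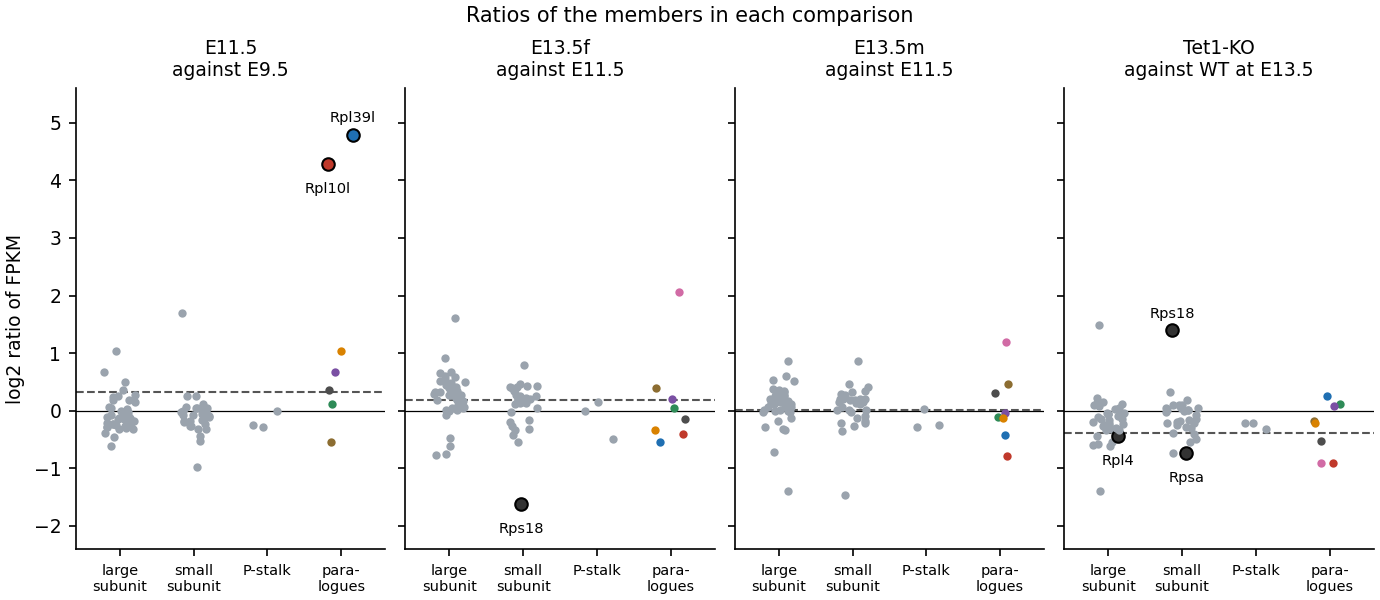
log2 ratio of FPKM for each member in the 4 comparisons, by class; black-rimmed points were called in the authors' deposited tables, coloured points are paralogues in the colours of the level plot, and the dashed line is the median of all genes. Rpl10l (4.29) and Rpl39l (4.79) stand apart at E11.5 against E9.5, and most canonical members lie near 0 in each comparison.

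Relative to the copy and parent together, Rpl10l made up 30.8% of the FPKM of the pair at E11.5 and 2.08% at E9.5. Rpl39l made up 26.0% of its pair at E11.5 and 1.10% at E9.5. Rpl10 shared 100% of its coding stretches with 15 other genes and Rpl39 86.5% with 8, so the parent levels are uncertain. Rpl10l shared 12.5% and Rpl39l 0%, but the percent of each pair also rests on the parent and is uncertain too. The parents themselves were close between the ages: Rpl10, a late-joining protein of the large subunit, had 169 FPKM at E11.5 and 180 at E9.5, and Rpl39, a small protein of the exit tunnel, had 93.0 and 106 FPKM in that order. Rps4y2 held 65.2% of its pair at E11.5 and 48.0% at E9.5. Rpl36al held most of the listed FPKM of its pair throughout, with 89.2% at E11.5 and 86.5% at E9.5. Rpl36al shared 100% of its coding stretches with 3 other genes, and Rpl36a 100% with 9. Rps4x, the parent of Rps4y2, shared 90.1% with 11, so the percents of both these pairs are uncertain.

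Markers of other cells also differed between these ages. The summed FPKM of 7 blood genes was 29.8 at E11.5 and 2171 at E9.5, with 5 of 7 lower and Ptprc at 0 in both. The 8 germ cell markers summed to 3092 FPKM at E11.5 and 2357 at E9.5, with 2 higher and none at 0. Markers of the gonad soma summed to 2.45 and 1.86 FPKM in that order. The 5 endothelial markers summed to 82.9 FPKM at E11.5 and 60.6 at E9.5, with 2 higher and with Kdr at 0 in both and Cdh5 at 0 at E9.5. The 5 epithelial markers summed to 257 and 293 FPKM in that order, with 1 lower, and the 5 mesenchymal markers to 132 and 121 FPKM. A single gene made up most of each of these last 3 sums. In the same order these were Pecam1 (70.8 and 60.4 FPKM) for endothelium, Epcam (225 and 223) for epithelium and Sparc (130 and 120) for mesenchyme. The sums thus say little about the rest of each list. The part of the markers in the rise of Rpl10l and Rpl39l was not tested.

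After E11.5 the copies stayed expressed, and neither was called lower. Rpl10l had 49.4 FPKM at E13.5f and 65.2 at E11.5, with an adjusted p of 0.648 in the authors' deposited table. Against E13.5m the values were 38.7 FPKM at E13.5m and 66.8 at E11.5, with an adjusted p of 0.443 in the authors' deposited table. Rpl39l had 19.4 FPKM at E13.5f and 28.4 at E11.5, and 21.7 FPKM at E13.5m and 29.1 at E11.5. All 4 values at E13.5 thus lay below E11.5 and above E9.5 once on the common scale, where E9.5 stood at 3.33 FPKM for Rpl10l and 1.02 for Rpl39l. Rpl10l held 23.0% of its pair at E13.5f and 23.9% at E13.5m, and Rpl39l 14.6% and 20.7%. These percents rest on the same uncertain parent levels.

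Rps18 was the only member called at E13.5f against E11.5, and it fell. It had 121 FPKM at E13.5f and 372 at E11.5, a log2 ratio of -1.62 ± 0.51 (SE) with an adjusted p of 0.0207 in the authors' deposited table. That made 0 higher and 1 lower of 83 tested members, where 9.34% of 12448 genes were higher and 2.68% lower. At an unadjusted p under 0.05 stood 3 members, among them Rps18 and Rpl3l. Of all 12448 tested genes 3296 did, a larger share. Rps18 shares 87.7% of its coding 50-base stretches with 13 other genes, so its level is uncertain. The canonical median was 0.22 and that of all genes 0.19. Rpl36a (0.91 ± 0.69 SE) and Rps23 (0.79 ± 0.67) were among the highest canonical ratios, and after Rps18 the lowest were Rpl38 (-0.76 ± 0.63) and Rpl29 (-0.75 ± 0.48). Among paralogues Rpl3l had 3.04 FPKM at E13.5f and 0.730 at E11.5, and the other 7 lay within 0.55 of no change on the log2 scale.

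At E13.5m against E11.5 no member was called of 81 tested, where 2.94% of 12311 genes were higher and 1.94% lower in the authors' deposited Cuffdiff table. With the adjustment computed again the count was also 0. An unadjusted p under 0.05 was reached by 2117 of all 12311 tested genes, but by only 1 member. That gene was Rps18, with 137 FPKM at E13.5m and 381 at E11.5 and an adjusted p of 0.0871 in the authors' deposited table. The canonical median was 0.15 beside 0.02 for all genes. Rps23 (0.86, its test marked as failed) and Rpl15 (0.60 ± 0.43 SE) were among the highest canonical ratios. Rps18 (-1.47 ± 0.53), Rpl21 (-1.40 ± 0.92) and Rpl29 (-0.72 ± 0.49) had the lowest. Both E13.5 groups were set against the same E11.5 libraries, so their low Rps18 ratios share that reference.

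By class, the median log2 ratio against E11.5 was 0.28 at E13.5f and 0.16 at E13.5m for the large subunit, 0.20 and 0.15 for the small subunit, and -0.01 and -0.24 for the P-stalk. The 5 paralogues other than Rpl10l, Rpl39l and Rpl3l were likewise not called. Rps4y2 had 1365 FPKM at E13.5m and 1494 at E11.5, Rpl36al 145 and 156, and Rps27l 216 and 222. Rpl7l1 had 185 FPKM at E13.5m and 149 at E11.5, and Rpl22l1 91.1 and 66.4. Rps19bp1, which binds Rps19, had 43.8 FPKM at E13.5m and 58.5 at E11.5, and was called in no comparison. The germ cell markers summed to 3722 FPKM at E13.5f and 2689 at E11.5, and to 5283 at E13.5m and 2755 at E11.5. Markers of the gonad soma summed to 3.70 FPKM at E13.5f and 2.13 at E11.5, and to 10.1 at E13.5m and 2.18 at E11.5, with Amh the highest in E13.5m at 4.01 FPKM. The part of these markers in the ratios of the members was not tested.

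**Figure D3:**
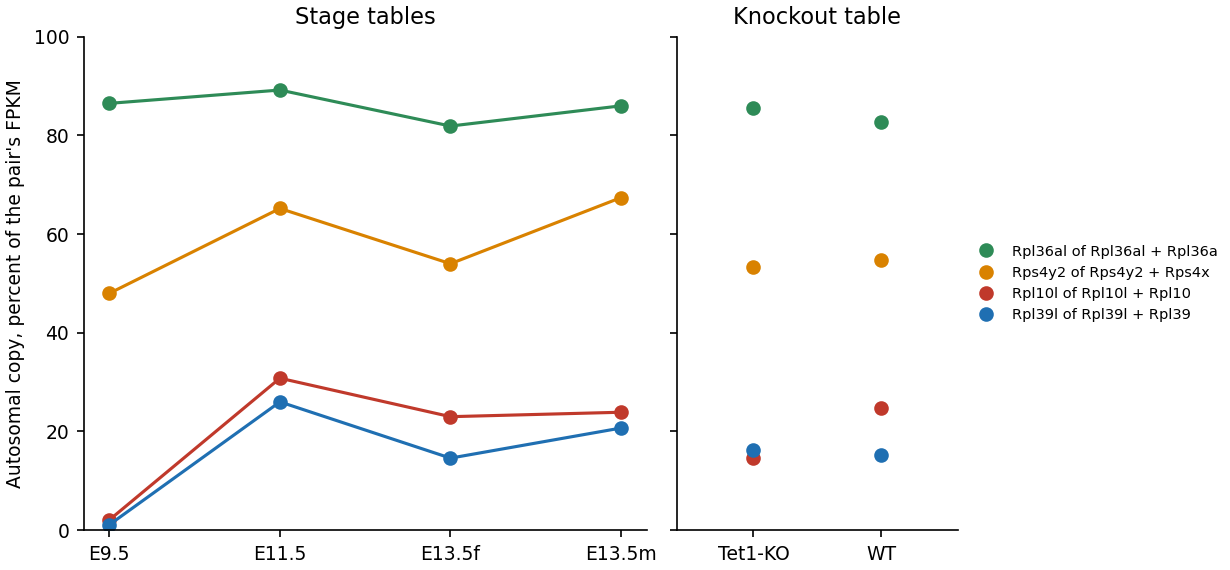
Autosomal copy as a percent of the summed FPKM of copy and X-linked parent, at E9.5, E11.5, E13.5f and E13.5m (left) and in Tet1-KO and WT at E13.5 (right), 1 pooled value per point. Rpl10l reaches 30.8% and Rpl39l 26.0% of their pairs at E11.5, against 2.08% and 1.10% at E9.5. Most coding stretches of each X-linked parent also occur in other genes, so the percents are uncertain.

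No table set E13.5m against E13.5f, so the log2 ratios against E11.5 were subtracted. The Y-linked gene Eif2s3y had 271 FPKM at E13.5m and 0.178 FPKM at E13.5f in their own tables. Of 68 members that could be tested, none passed at an adjusted p of 0.05 (normal test on the implied SEs, Benjamini-Hochberg over 10677 genes). Of all genes, 0.122% were higher and 0.0468% lower in E13.5m. An unadjusted p under 0.05 was reached by 0 members. Among genes at 1 FPKM or more, 271 of 8305 tested autosomal and 18 of 331 tested X-linked genes did. The E11.5 error enters both SEs, which makes this test conservative, so real differences could be missed. All 4 X-linked canonical genes had lower values in E13.5m: Rps4x had 646 FPKM in E13.5m and 989 in E13.5f on the common scale, Rpl10 120 and 165, Rpl39 81.1 and 113, and Rpl36a 23.0 and 34.8. Their median log2 ratio of E13.5m over E13.5f was -0.54, against -0.07 for the 73 autosomal canonical genes, of which 2, Rpl21 among them, had a lower ratio than each of the 4 had. Over all genes at 1 FPKM or more, the medians were -0.61 for 403 X-linked genes and -0.20 for 10031 autosomal genes. The X-linked ribosomal genes thus lay near the median of their chromosome, and with SEs of 0.61 to 1.05 for the 3 with a test no single difference was resolved. The autosomal copies had 37.8 FPKM in E13.5m and 49.4 in E13.5f for Rpl10l, and 21.2 and 19.4 for Rpl39l.

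**Figure D4:**
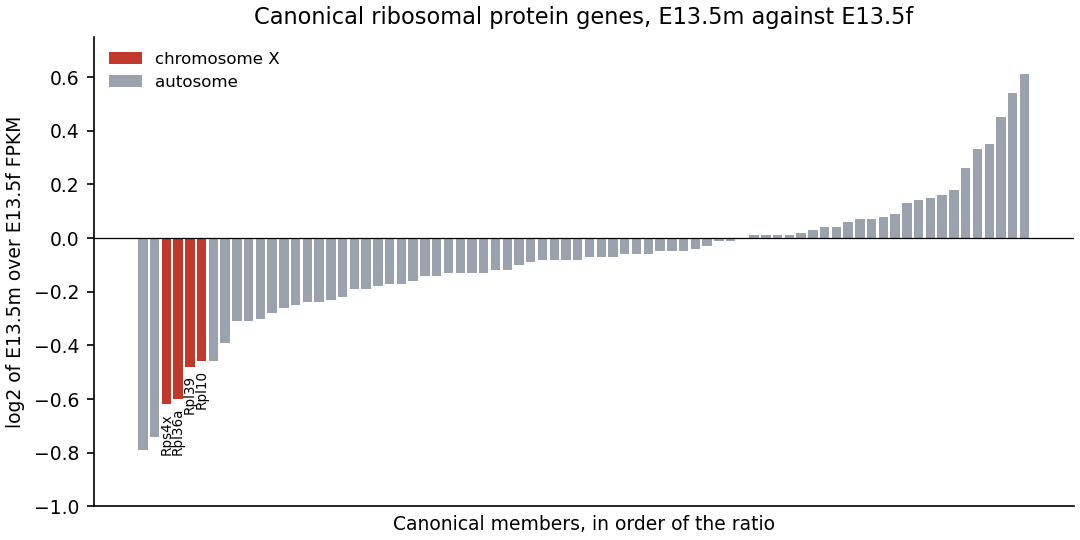
log2 of E13.5m over E13.5f FPKM on the common scale for the canonical members in order of the ratio, without Rpl26, which is under 2 FPKM in both; red bars are X-linked genes. The 4 X-linked genes lie between -0.62 and -0.46, among the lowest of the set.

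In the knockout table Tet1 itself had 0.218 FPKM in Tet1-KO and 6.36 FPKM in WT PGCs, which fits the genotype labels. Of 85 tested members, 1 was higher (Rps18) and 2 were lower (Rpl4 and Rpsa) in Tet1-KO, where 0.677% of 16394 genes were higher and 5.48% lower. Rps18 (chr17:34088943-34092586, mm9) had 308 FPKM in Tet1-KO and 117 in WT, a log2 ratio of 1.40 ± 0.38 (SE) with an adjusted p of 0.0104 in the authors' deposited table. Rpl4 had 2372 FPKM in Tet1-KO and 3225 in WT, a log2 ratio of -0.44 ± 0.07 (SE). Its adjusted p was 8.55e-07 in the authors' deposited table, where the median SE of the members was 0.38. Rpsa, a small-subunit protein also known as a laminin receptor precursor, had 507 FPKM in Tet1-KO and 840 in WT, a log2 ratio of -0.73 ± 0.21 (SE) with an adjusted p of 0.0173 in the authors' deposited table. The median of all genes in this table was -0.38, and Rpl4 lay 0.06 and Rpsa 0.35 below it. Tested relative to this median at the same threshold, Rpl4 and Rpsa were no longer called, while Rps18, 1.78 above it, was. Rpsa shared 98.8% of its coding stretches with 28 other genes and Rpl4 20.3% with 1, so the level of Rpsa, like that of Rps18, is uncertain.

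The canonical median in Tet1-KO against WT was -0.15, so that 54 of 76 canonical genes lay below 0 while the set as a whole lay 0.23 above the median of all genes. Beside Rps18, Rpl21 (1.49 ± 0.65 SE) and Rps29 (0.32 ± 1.46) had the highest canonical ratios, and Rps23 (-0.73 ± 0.57) and Rpsa were among the lowest. Rpl10l had 27.0 FPKM in Tet1-KO and 50.7 in WT, a log2 ratio of -0.91 ± 0.43 (SE) with an adjusted p of 0.191 in the authors' deposited table. Rpl39l had 24.1 FPKM in Tet1-KO and 20.2 in WT, with an adjusted p of 0.851 in the authors' deposited table. Both copies were thus expressed without Tet1, and neither passed the test. Of the other paralogues, Rpl7l1 had 95.3 FPKM in Tet1-KO and 137 in WT, Rpl3l 1.69 and 3.18, Rps4y2 1036 and 1206, Rpl22l1 77.2 and 87.4, Rpl36al 165 and 153, and Rps27l 281 and 264. The 8 germ cell markers summed to 2643 FPKM in Tet1-KO and 3897 in WT, with 1 lower, and those of the gonad soma to 6.91 and 3.57 FPKM in that order. Their part in these ratios was not tested.

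**Figure D5:**
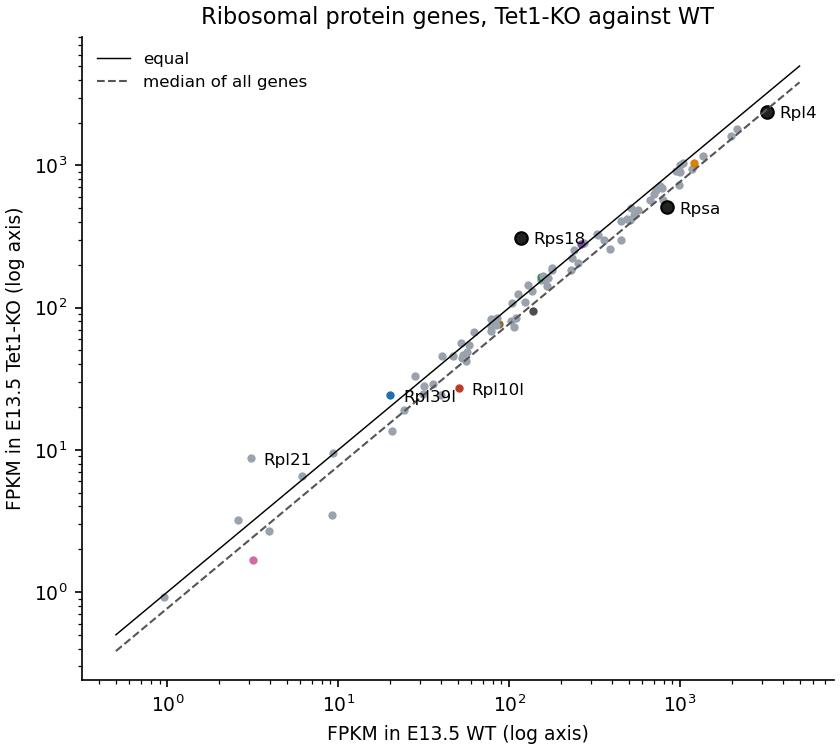
FPKM of the 85 members in Tet1-KO (vertical) and WT (horizontal) PGCs at E13.5, both log axes; black-rimmed points were called, the solid line marks equal values and the dashed line the median log2 ratio of all genes (-0.38). Rps18 lies above both lines at 308 against 117 FPKM, and Rpl4 lies on the dashed line.

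Rps18 had the widest range of the canonical genes at 10 FPKM or more. It stood at 115 FPKM at E9.5, 372 at E11.5, 121 at E13.5f and 134 at E13.5m on the common scale. In the knockout table it stood at 308 FPKM in Tet1-KO and 117 in WT. The E13.5f and WT columns may hold the same libraries, so their low values cannot be counted as independent. The E11.5 and Tet1-KO values, each pooled from 2 libraries, were the high ones, and no table shows whether 1 library carried them.

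Ribosomal proteins outside the name rule were checked as well. Gnb2l1, the scaffold protein also called Rack1, had 1937 FPKM at E11.5 and 1826 at E9.5, and 1478 in Tet1-KO and 2070 in WT. Fau, whose product yields a small-subunit protein, had 162 FPKM at E11.5 and 154 at E9.5. Neither was called in any of the 4 tables, and the test of Fau was marked as failed in both E13.5 stage tables.

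Genes that make and use ribosomes were read against the same shares of all genes. Of 15 genes of ribosomal RNA transcription, Taf1d, a subunit of the promoter factor SL1, rose at E11.5 against E9.5 (88.0 against 46.7 FPKM, adjusted p = 5.93e-08 in the authors' deposited table), the sole call of 14 tested, where 3.71% of all genes were higher. Rrn3, which brings RNA polymerase I to its promoter, fell at E13.5f (20.3 FPKM, against 78.8 at E11.5) and at E13.5m (19.1 FPKM, against 80.7 at E11.5). It rose in Tet1-KO, with 55.0 FPKM against 21.1 in WT and an adjusted p of 0.00214 in the authors' deposited table. In each of these 3 comparisons it was the only call of the list, of 12, 12 and 14 tested, where 2.68% of all genes were lower at E13.5f, 1.94% lower at E13.5m and 0.677% higher in Tet1-KO. With 1 call in each list, nothing particular to the list is read from these counts.

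Of 60 ribosome assembly genes none was called at E11.5 against E9.5 or at E13.5m against E11.5 in the authors' deposited Cuffdiff tables. In that order 6 of 58 and 2 of 54 tested had an unadjusted p under 0.05. Among all tested genes 2559 of 12904 and 2117 of 12311 did, which are larger shares. At E13.5f against E11.5, 2 of 54 fell: Noc3l, of the nucleolar large-subunit precursor (6.98 against 18.8 FPKM), and the nucleolar helicase gene Ddx21 (20.8 against 48.4 FPKM). This share is near the 2.68% of all genes that were lower there. In Tet1-KO against WT, Tsr1, a late small-subunit assembly factor, rose (83.9 against 41.7 FPKM), while Rrp1 (73.3 against 144 FPKM) and the nucleolin gene Ncl (442 against 528 FPKM) fell, of 59 tested, where 0.677% of all genes were higher and 5.48% lower. Ncl, at a log2 ratio of -0.26, lay above the median of all genes. Of 38 translation initiation and elongation factors the sole call in the 4 tables was Eef1a1, which delivers aminoacyl-tRNA, lower in Tet1-KO at 6842 FPKM against 9383 in WT, a log2 ratio of -0.46. That ratio is near the median of all genes in this table (-0.38), and 5.48% of all genes were called lower there. An unadjusted p under 0.05 was reached by 0 of 36, 2 of 35, 1 of 36 and 6 of 38 tested factors. The order is E11.5 against E9.5, E13.5f and E13.5m against E11.5, and Tet1-KO against WT. Among all tested genes 2559 of 12904, 3296 of 12448, 2117 of 12311 and 3503 of 16394 did, a larger share each time.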

How the data were processed

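RNA of the 12 PGC libraries was, per the labels' protocols, amplified with a SMARTer kit for low input before Illumina sequencing. Per the submitters' processing notes, the build was mm9 and the tools included TopHat 1.3.1 with Bowtie, and Cufflinks with Cuffdiff in versions 1.0.3 and 1.2.1. The authors deposited 4 tables with 1 FPKM value per group, per the file headers. They hold p-values and adjusted p-values (q-value or FDR) as deposited by the authors. The FDR of the knockout table is treated as a score because the authors' deposited values reach 1.06. The test statistic of the stage tables is likewise a score, deposited by the authors.

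Calls were the authors' own at 0.05. The log2 ratio was computed again from both FPKM values, and its SE from the deposited statistic or p-value where the normal deviate was above 0.05. Genes listed at 0 got none. E13.5m and E13.5f were compared by a normal two-sided test of the difference of log2 ratios with Benjamini-Hochberg adjustment. It ignores that both ratios share the E11.5 libraries, which makes it conservative. The common scale multiplies the E9.5 table by 0.870 and the E13.5m table by 0.976. The difference test and the test relative to the median were tested on simulated data.

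Genes and lists were chosen with earlier results of these data known. The text names the paralogues, the X-linked parents, the called members, the 3 highest and 3 lowest canonical ratios per comparison, the 5 highest and 5 lowest levels, up to 4 called genes per pathway list, ribosomal proteins outside the name rule and Tet1; a few genes that this rule takes in are not reported here. Eif2s3y was named after its values were seen. Shared stretches of 50 bases were counted in GENCODE M21 transcripts, matched by symbol for all 86 members, and promoters came from RefSeq (GRCm38.p6); coordinates of the 2 builds were not converted. Alternatives were a threshold of 0.01, the adjustment computed again, a minimum of 1 FPKM, centring on the median of all genes, pseudocounts of 1 and 0.1, and 1 row per symbol. Scripts ran in Python 3.11.15 with scipy 1.17.1, pandas 2.3.3, matplotlib 3.10.9 and numpy 2.4.6.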

Additional observations from a re-analysis of the deposited data

How the results depend on the processing

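Of 105 alternative values for 27 results, 99 kept their direction and stayed within 1.5 times a count, or within the median implied SE of the members for a median or a share. For Rpl10l and Rpl39l the bound was their own SE, or their call when centred. Taking 1 row per symbol could not change any value, since no symbol was repeated. The bound for a median is wide: at E11.5 against E9.5 the members' median went from -0.09 to -0.41 when centred and counts as kept. The count of 99 is thus no measure of how firm the results are. At a threshold of 0.01 the call of Rps18 at E13.5f against E11.5 was lost (0 lower), and in Tet1-KO against WT 0 members were higher and 1, Rpl4, was lower. Relative to the median of all genes, 0 members were lower in Tet1-KO, and the median log2 ratio of the members was 0.22 in place of -0.16, by the shift of all genes that this centring removes. Without the 100 highest other rows the members' share of the summed FPKM was larger in all 6 groups, since the sum is smaller: 7.37% in place of 5.54% at E9.5, 5.77% in place of 4.38% at E11.5, 5.46% in place of 4.33% at E13.5f, 5.81% in place of 4.52% at E13.5m, 6.10% in place of 4.72% in Tet1-KO and 5.28% in place of 4.07% in WT. Of these only the WT share is outside the tolerance above, which is narrower for the knockout table than for the stage tables. The calls of Rpl10l and Rpl39l at E11.5 against E9.5 held relative to the median at 0.05, with log2 ratios of 3.97 and 4.48. No paired analysis was possible because the tables give 1 pooled value per group, and for the same reason leaving out each replicate was not run. Depth is unknown, and low levels such as those of Rpl26 and Rpl3l are the least certain.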

Other observations

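The E13.5f column of the stage tables and the WT column of the knockout table held nearly the same values for the members. The ratio of WT to E13.5f had a median of 0.973 over 85 genes, and all but 4 lay between 0.892 and 1.08. Outside 1.5 times lay Rpl35 (162 FPKM in WT, 304 in E13.5f), Rpl5 (781 and 387), Rps27 (9.30 and 2.73) and Rpl26 (0.960 and 0.552), of which 3 have the same locus in both tables. Eif2s3y, on the Y chromosome, had 0.0296 FPKM in Tet1-KO and 0.137 in WT. It had 53.4 FPKM at E11.5 and 122 at E9.5.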
